A study of Mus musculus with 458 samples.

Results

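The genes described here are the 48 of 22645 gene symbols in the expression table whose symbols run from Psma to Psmg followed by a number, the naming scheme of the mouse proteasome. They comprise 16 genes of the 20S core (Psma and Psmb without the immunoproteasome genes), the 3 immunoproteasome genes Psmb8, Psmb9 and Psmb10, 20 genes of the 19S regulatory cap (Psmc and Psmd), 4 activators (Psme), the inhibitor Psmf1 and 4 assembly chaperones (Psmg). They were measured by RNA sequencing of 458 sorted haematopoietic stem cells (HSCs) from the bone marrow of C57BL/6 mice, with the phenotype LSK CD150+CD48-CD45.2+, in which CD45.2 marks donor cells. Each recipient had been transplanted with 1 Vwf+ HSC and grouped by the blood cells that this cell replaced over 16 weeks. Platelet-restricted (PLT) mice had regained donor platelets alone. PEM mice had donor platelets and erythrocytes as well as myeloid cells, and multilineage (MUL) mice had every lineage. There were 93 and 84 cells in PLT mice 1 and 2, 93 and 25 cells in PEM mice 1 and 2, and 78 and 85 cells in MUL mice 1 and 2. The sorted cells of a mouse thus descend from 1 transplanted cell, and the mouse, not the cell, is the replicate.

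The proteasome degrades proteins that carry ubiquitin. Its barrel-shaped core is built of rings of Psma and Psmb subunits, of which Psmb5, Psmb6 and Psmb7 cut peptides, and in many blood cells Psmb8, Psmb9 and Psmb10 take their places to form the immunoproteasome, which supplies peptides for antigen presentation. The cap recognises ubiquitin, removes it and feeds the unfolded substrate into the core with its ATPases, Psmc1 to Psmc6, while Psme activators open the core in the absence of ubiquitin. HSCs are known for a low rate of protein synthesis and for dependence on protein quality control.

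The catalytic genes are where the core takes alternative forms, so the 250 bases upstream of the RefSeq start (GRCm38.p6) are shown for those of the 6 that the RefSeq table held. On the mm10 build Psmb8 lies at chr17:34197721-34201454 on the plus strand, Psmb9 at chr17:34181987-34187764 on the minus strand and Psmb10 at chr8:105935735-105938444 on the minus strand (GENCODE M21). Their standard counterparts are Psmb5 at chr14:54614119-54618022 on the minus strand, Psmb6 at chr11:70525367-70527858 on the plus strand and Psmb7 at chr2:38588036-38644087 on the minus strand. The windows are chr14:54617996-54618245 (minus) for Psmb5, chr11:70525107-70525356 (plus) for Psmb6, chr17:34197945-34198194 (plus) for Psmb8, chr17:34187331-34187580 (minus) for Psmb9 and chr8:105938393-105938642 (minus) for Psmb10. The windows of Psmb8 and Psmb9 lie inside the GENCODE gene bounds, and those of Psmb5 and Psmb10 reach partly into them. The Psmb6 window lies outside them. Sequences run 5′ to 3′ on the gene's strand, and capitals mark a match to 1 of the 4 motifs named after them.
Psmb5: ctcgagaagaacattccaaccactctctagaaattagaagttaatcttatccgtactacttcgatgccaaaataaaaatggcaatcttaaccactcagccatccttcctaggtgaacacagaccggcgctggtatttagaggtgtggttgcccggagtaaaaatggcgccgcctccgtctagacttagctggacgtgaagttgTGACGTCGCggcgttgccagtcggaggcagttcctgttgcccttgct
Psmb6: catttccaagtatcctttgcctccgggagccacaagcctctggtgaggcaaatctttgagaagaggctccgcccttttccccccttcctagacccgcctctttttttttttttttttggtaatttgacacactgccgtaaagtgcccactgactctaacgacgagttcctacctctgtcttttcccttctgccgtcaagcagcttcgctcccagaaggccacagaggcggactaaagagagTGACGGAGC
Psmb8: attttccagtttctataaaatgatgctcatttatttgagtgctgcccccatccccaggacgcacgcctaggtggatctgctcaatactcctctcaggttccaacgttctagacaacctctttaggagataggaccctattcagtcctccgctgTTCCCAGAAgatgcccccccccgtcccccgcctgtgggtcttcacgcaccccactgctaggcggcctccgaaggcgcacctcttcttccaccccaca
Psmb9: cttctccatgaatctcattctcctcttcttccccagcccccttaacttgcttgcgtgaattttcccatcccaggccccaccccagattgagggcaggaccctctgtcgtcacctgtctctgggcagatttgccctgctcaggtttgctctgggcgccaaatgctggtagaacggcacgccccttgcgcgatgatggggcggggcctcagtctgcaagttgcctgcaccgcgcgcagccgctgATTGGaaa
Psmb10: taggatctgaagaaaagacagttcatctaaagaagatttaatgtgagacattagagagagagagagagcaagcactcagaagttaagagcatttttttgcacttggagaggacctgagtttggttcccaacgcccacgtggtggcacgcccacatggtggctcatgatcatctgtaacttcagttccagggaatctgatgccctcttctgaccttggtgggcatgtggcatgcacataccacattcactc

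Both standard genes held the antioxidant response element TGACNNNGC on the gene's strand, 47 to 39 bases before the start in Psmb5 and 9 to 1 bases before it in Psmb6. Psmb8 held the gamma-activated site TTCNNNGAA 97 to 89 bases before its start, Psmb9 a CCAAT box on the opposite strand 8 to 4 bases before its start, and Psmb10 none of the motifs searched. The search covered both strands, and the interferon-stimulated response element was the fourth motif. The table held 43 windows for 40 of the 48 proteasome genes. The antioxidant response element was in 5 of the 43 windows (11.6%) and in 10.2% of all 32851 windows. The interferon-stimulated response element was in 3 (6.98%) and in 2.98% of all windows, and the gamma-activated site in 2 (4.65%) and in 7.02% of all. The CCAAT box was in 14 (32.6%) and in 33.8% of all. A match is a run of letters and not a binding site.

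Mapped reads ranged from 1.30 to 17.3 M per cell (median 4.90 M). Of the HSC markers, Kit averaged 30.2 to 109 RPKM, Ly6a 191 to 538 RPKM, Procr 23.6 to 95.7 RPKM, Mecom 13.6 to 35.1 RPKM, Hlf 17.2 to 43.7 RPKM and Fgd5 0.644 to 15.5 RPKM over the 6 mice. Slamf1, which encodes the CD150 used in the sort, had 78.3 and 35.05 RPKM in PLT, 65.8 and 41.00 RPKM in PEM, and 19.97 and 4.25 RPKM in MUL mice, and was at 1 RPKM or more in 4.71% of the cells of MUL mouse 2. Both MUL mice thus lay below the other 4 for Slamf1, and its part in the results was not tested. Neutrophil markers (S100a8, S100a9, Ngp and 6 more) stood out in PEM mouse 2, at a summed mean of 15103 RPKM, and in PLT mouse 1, at 2929 RPKM, against 33.5 to 988 RPKM in the other 4 mice. The cells with at least 3 of these markers lay on the second plate in both mice, 3 of 11 cells in PEM mouse 2 and 13 of 46 in PLT mouse 1. That plate of PEM mouse 2 also stood apart in depth, with a median of 12.2 M reads per cell against 3.20 M on its first plate. Both MUL mice came from 1 experiment and each other mouse from its own, so experiment and group cannot be told apart. The deposited cell table records PLT mouse 2 and PEM mouse 2 as female and the others as male, and the part of sex in the results was not tested.

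The summed level of the 48 genes in every restricted mouse, PLT or PEM, exceeded that of every MUL mouse. It was 9213 and 12805 RPKM in PLT mice, 9502 and 9896 RPKM in PEM mice, and 7832 and 8294 RPKM in MUL mice. Both PLT and both PEM mice lay above both MUL mice, while the ranges of PLT and PEM overlapped. As a mean share of a cell's summed RPKM, the genes took 1.73% and 2.12% in PLT, 1.65% and 1.72% in PEM, and 1.49% and 1.58% in MUL mice. By this mean share both PLT mice lay above both PEM mice, which the sums did not show, and all 4 lay above both MUL mice. The order of PLT mouse 1 and PEM mouse 2 was not firm. Their median shares over cells were 1.70% and 1.88%, and on the first plate of PEM mouse 2 the mean share was 1.89%. Without the second plate of PEM mouse 2 its sum was 10344 RPKM. Both separations from MUL also held in each plate alone, in cells with 1800 to 3000 detected genes, without cells carrying mature markers, after rescaling every cell to the same total, and after median-ratio scaling. With every cell rescaled, the PLT sums of 9338 and 11462 RPKM also lay above the PEM sums of 8922 and 9273 RPKM. These sums are the mean shares on another scale and carry the same limit. Leaving out the cells with 3 or more markers of any mature blood cell list gave 9196 and 12944 RPKM in PLT, 9553 and 11285 RPKM in PEM, and 7991 and 8375 RPKM in MUL mice.

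**Figure D1:**
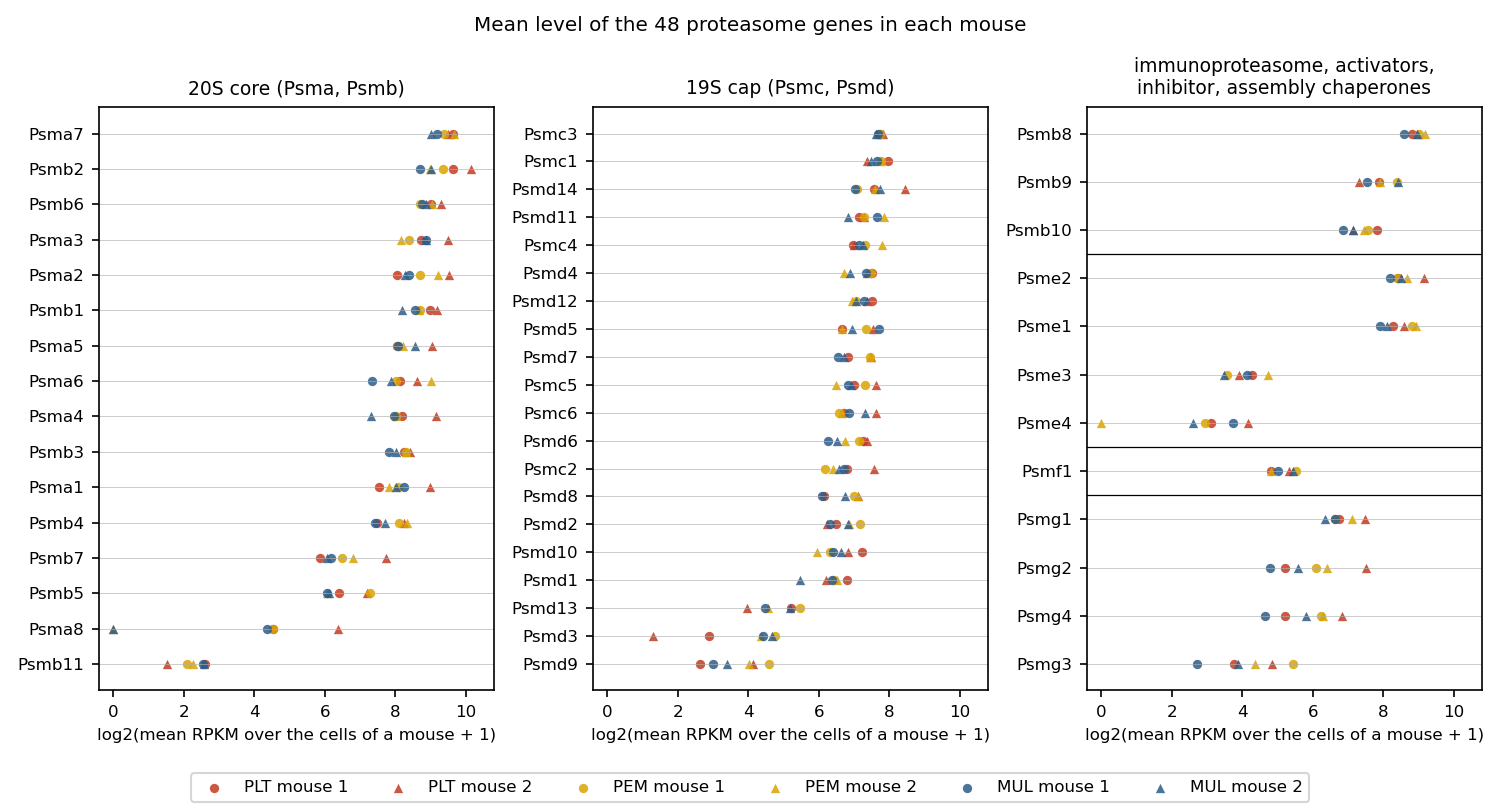
Mean level of each of the 48 proteasome genes as log2(mean RPKM over the cells of a mouse + 1), with 1 point per mouse. Core genes fill the upper end of the scale, most cap genes sit below them, and PLT mouse 2 has the highest point for 23 of the 48 genes.

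The core carried most of this sum. Its 16 genes added up to 6271 ± 1869 RPKM in PLT, 5027 ± 295 RPKM in PEM and 4174 ± 41.1 RPKM in MUL mice (mean ± SD, n = 2 mice each). PLT mouse 2, at 7593 RPKM, stood above PLT mouse 1, at 4950 RPKM, and PLT mouse 1 lay within the range of the PEM mice, 4818 to 5236 RPKM. The 3 core genes with the highest mean RPKM were Psma7, an outer-ring subunit, and Psmb2 and Psmb6 of the inner rings. Psma7 had 789 and 717 RPKM in PLT, 669 and 805 RPKM in PEM, and 581 and 516 RPKM in MUL mice. Psmb2 had 789 and 1123 RPKM in PLT, 658 and 510 RPKM in PEM, and 417 and 511 RPKM in MUL mice. Both PLT mice lay above the other 4 mice for Psmb2, whose product is a structural inner-ring subunit without a cutting site, and for Psma7 all restricted mice lay above both MUL mice. Psma4, an outer-ring subunit, had 294 and 571 RPKM in PLT, 261 and 260 RPKM in PEM, and 251 and 159 RPKM in MUL mice. Psma3, also of the outer ring, had 420 and 728 RPKM in PLT, 332 and 284 RPKM in PEM, and 469 and 472 RPKM in MUL mice. Psma4 thus ran in the order PLT, PEM, MUL with no overlap, whereas for Psma3 both PEM mice lay below the other 4 mice. The remaining 7 core genes outside the low pair and the catalytic genes each had between 160 and 729 RPKM in every mouse.

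By the median difference in level, PLT mouse 2 stood above PLT mouse 1 in the core but not in the immunoproteasome. The median difference over the core genes was 0.77 on the log2 scale, with 14 of 16 genes higher in PLT mouse 2. The corresponding differences were 0.11 in the cap and -0.58 in the immunoproteasome, and -0.01 over all 11337 genes tested, of which 47.8% were higher in PLT mouse 2. Of the immunoproteasome genes, Psmb8 was higher in PLT mouse 2, at 502 against 453 RPKM, and Psmb9 and Psmb10 were lower. Their mean share of cells at 1 RPKM or more was higher in PLT mouse 2, at 74.2% against 59.9%. In PEM and MUL mice the core differed between the mice of a pair by a median of 0.09 and 0.03 on the log2 scale.

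The low pair were Psma8, an outer-ring subunit known from testis, and Psmb11, an inner-ring subunit known from the thymic cortex. Psma8 had 22.2 and 82.3 RPKM in PLT mice, 22.3 RPKM in PEM mouse 1 and 19.6 RPKM in MUL mouse 1, and was listed at 0 in PEM mouse 2 and MUL mouse 2. Psma8 is a close copy of Psma7, the most abundant core gene here, and reads may be shared between them, so its level is uncertain. Psmb11 averaged 1.88 to 5.09 RPKM per mouse. It was at 1 RPKM or more in 434 of 458 cells and at 0 in none. Yet it lay between 1 and 10 RPKM in 420 of the 434 and never above 13.02 RPKM. Its share of cells was 100% and 81.0% in PLT mice and 95.7% to 98.8% in the others. That share holds mostly low values and enters the averages over core genes given below. Psmb11 lies near Psmb5 in the genome, at chr14:54621433-54629556 on the opposite strand.

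The immunoproteasome genes were abundant in all 6 mice, and none of the 3 separated both PLT mice from both MUL mice. Of all tested genes, 14.8% lay higher and 24.9% lower in both PLT than in both MUL mice. Both PEM mice lay above both MUL mice for Psmb8 and Psmb10, as they did for 17.5% of all tested genes. Psmb8 had 453 and 502 RPKM in PLT, 521 and 584 RPKM in PEM, and 386 and 498 RPKM in MUL mice, and its standard counterpart Psmb5 had 84.1 and 146 RPKM in PLT, 154 and 66.2 RPKM in PEM, and 65.5 and 68.4 RPKM in MUL mice. Psmb8 thus exceeded Psmb5 in every mouse, by 3.39 to 8.82 times. Psmb9 went the other way. It had 234 and 157 RPKM in PLT, 333 and 238 RPKM in PEM, and 186 and 342 RPKM in MUL mice, while Psmb6 had 512 and 633 RPKM in PLT, 415 and 527 RPKM in PEM, and 432 and 471 RPKM in MUL mice, so that Psmb9 was at 0.247 to 0.801 of the level of Psmb6. Psmb10 had 226 and 139 RPKM in PLT, 188 and 173 RPKM in PEM, and 115 and 141 RPKM in MUL mice. Psmb7 had 56.8 and 211 RPKM in PLT, 89.1 and 110 RPKM in PEM, and 71.4 and 66.2 RPKM in MUL mice. Psmb10 exceeded Psmb7 in 5 of 6 mice, and in PLT mouse 2 it stood at 0.658 of the level of Psmb7.

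Summed over the 3 pairs, the immunoproteasome genes made up 58.3% and 44.6% of the catalytic RPKM in PLT mice, 61.3% and 58.6% in PEM mice, and 54.7% and 61.8% in MUL mice. The group means of 51.5% ± 9.69 in PLT, 59.9% ± 1.90 in PEM and 58.3% ± 5.05 in MUL mice (SD, n = 2 mice each) differed by less than the spread within PLT, where mouse 2 was the lowest of all. No test was run on these shares of summed genes. For a single value, the smallest two-sided p that an exact permutation of 2 against 2 mice allows is 0.333. Exons of Psmb9 overlap those of Tap1 on the opposite strand by 212 bases, exons of Psmb8 overlap those of Gm20496 by 498 bases, and exons of Psmb7 overlap those of Nek6 by 405 bases. Whether strand was used in counting was not given, so reads of such partners cannot be told apart.

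**Figure D2:**
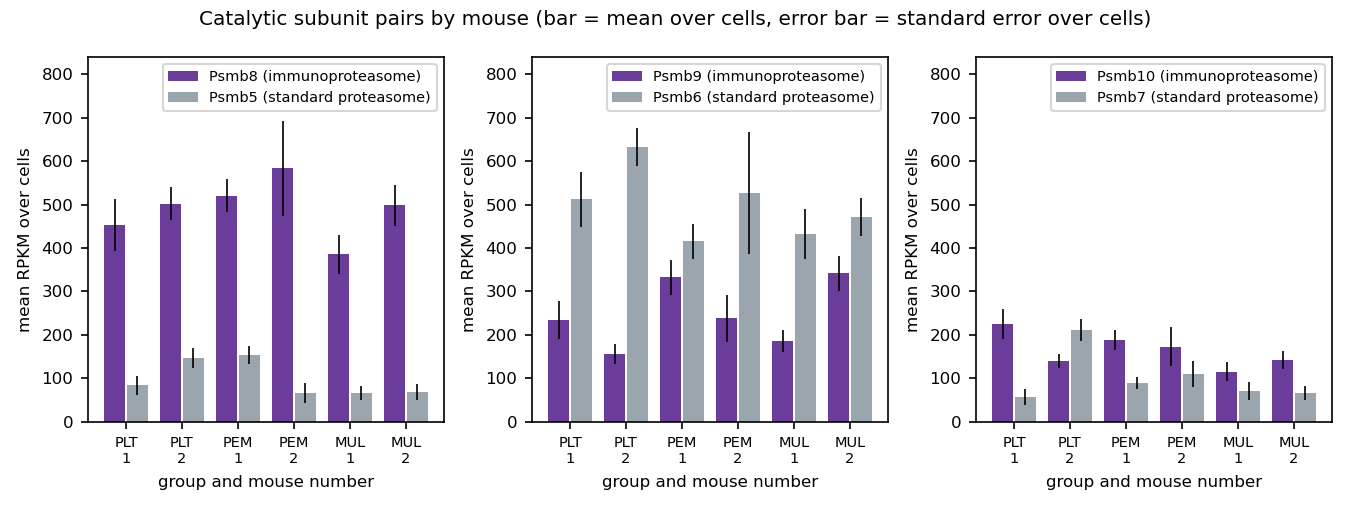
Mean RPKM of the 3 pairs of immunoproteasome and standard catalytic subunits in each mouse, with standard errors over cells. Psmb8 stands above Psmb5 in all 6 mice, Psmb9 below Psmb6 in all 6, and Psmb10 above Psmb7 except in PLT mouse 2, at 139 against 211 RPKM.

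Within cells, Psmb8 without Psmb5 was common and the reverse rare. Psmb8 was at 1 RPKM or more in 80.6% to 96.8% of the cells of a mouse, and Psmb5 in 31.2% to 82.8%. Such shares by themselves make Psmb5 without Psmb8 rare, so these counts do not show a link between the genes. A gene below 1 RPKM in a cell may be unexpressed or missed. Psmb8 alone reached 1 RPKM in 47 of 93 and 23 of 84 PLT cells, 15 of 93 and 12 of 25 PEM cells, and 35 of 78 and 37 of 85 MUL cells. Psmb5 alone was found in 0 to 2 cells of each mouse. In the Psmb6 and Psmb9 pair the lone gene was mostly the standard Psmb6, found without Psmb9 in 36 of 93 and 38 of 84 PLT cells, 14 of 93 and 3 of 25 PEM cells, and 23 of 78 and 20 of 85 MUL cells. Psmb6 was at 1 RPKM or more in all 84 cells of PLT mouse 2, so Psmb9 could not be found without it there. In the other mice Psmb9 was found without Psmb6 in 2 to 11 cells. Psmb5 had 101 of its 249 cells at 1 RPKM or more between 1 and 10 RPKM, so its share of cells holds many low values.

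Cap genes were lower than core genes on the RPKM scale, which is per length of gene. The median cap gene had 119 and 164 RPKM in PLT, 137 and 105 RPKM in PEM, and 109 and 113 RPKM in MUL mice, below the core medians of 274 and 513 RPKM in PLT, 271 and 308 RPKM in PEM, and 260 and 259 RPKM in MUL mice. The summed cap level was 2673 ± 312 RPKM in PLT, 2458 ± 78.0 RPKM in PEM and 2239 ± 23.9 RPKM in MUL mice (mean ± SD, n = 2 mice each). The 3 highest cap genes were the ATPases Psmc3 and Psmc1 and the deubiquitinating subunit Psmd14. Psmc3 was the steadiest of the 48 genes, with 213 and 226 RPKM in PLT, 211 and 205 RPKM in PEM, and 204 and 197 RPKM in MUL mice. Its exons overlap those of Slc39a13 on the opposite strand by 215 bases. Psmc1 had 249 and 164 RPKM in PLT, 215 and 216 RPKM in PEM, and 199 and 177 RPKM in MUL mice. Psmd14, which cuts ubiquitin off the substrate, had 190 and 349 RPKM in PLT, 134 and 192 RPKM in PEM, and 130 and 214 RPKM in MUL mice, with overlap among all groups.

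The ubiquitin receptor Psmd4 had 181 and 164 RPKM in PLT, 179 and 103.4 RPKM in PEM, and 161 and 117 RPKM in MUL mice, so both PLT mice lay above both MUL mice. Psmd2, a large scaffold subunit of the base, had 88.2 and 74.5 RPKM in PLT, 144 and 114.1 RPKM in PEM, and 79.5 and 113.7 RPKM in MUL mice. Both PEM mice thus lay above all others for Psmd2. Psmc4, an ATPase of the base, had 125 and 127 RPKM in PLT, 157 and 219 RPKM in PEM, and 139 and 150 RPKM in MUL mice, in the order PEM, MUL, PLT without overlap. The values of Psmc4 and Psmd2 hold many low ones, with 163 of 402 and 123 of 310 cells at 1 RPKM or more lying between 1 and 10 RPKM.

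The lid subunit Psmd3 had the lowest fold change of the cap in both comparisons of PLT mice. It had 6.47 and 1.48 RPKM in PLT mice, 26.2 and 19.5 RPKM in PEM mice, and 20.4 and 24.8 RPKM in MUL mice, and was at 1 RPKM or more in 6.45% and 4.76% of PLT cells, 23.7% and 12% of PEM cells, and 17.95% and 17.65% of MUL cells. Both PLT mice lay below the other 4 mice in level and in share. Psmd3 is therefore a gene of few cells, 64 in all, and its mean rests on them. Few cells and a low share in PLT were not particular to Psmd3. Psmd13 was at 1 RPKM or more in 69 cells, 7.53% and 10.7% of PLT cells against 11.5% to 26.9% in the other 4 mice. Its level, 35.9 and 14.6 RPKM in PLT mice, overlapped with both other groups. Psmd13 was chosen for mention after its values were seen. Its exons overlap those of Sirt3 on the opposite strand by 342 bases. Sirt3 averaged 166 RPKM over the mice and Psmd13 28.9 RPKM, and reads of such partners cannot be told apart. The lid subunit Psmd6 had 151 and 166 RPKM in PLT, 139 and 107 RPKM in PEM, and 75.4 and 91.2 RPKM in MUL mice, in the order PLT, PEM, MUL without overlap. Psmd7, another lid subunit, had 114 and 178 RPKM in PLT, 175 and 173 RPKM in PEM, and 93.0 and 105 RPKM in MUL mice, with all restricted mice above both MUL mice. Psmd9 and Psmd10 assist the assembly of the base rather than staying in it. Psmd9 had 5.21 and 16.8 RPKM in PLT, 23.1 and 15.2 RPKM in PEM, and 7.07 and 9.57 RPKM in MUL mice, and 128 of its 191 cells at 1 RPKM or more lay between 1 and 10 RPKM. Psmd10 had 150 and 113 RPKM in PLT, 79.3 and 60.6 RPKM in PEM, and 83.7 and 97.7 RPKM in MUL mice, with both PLT mice above the other 4. Psmc6, an ATPase, had 104 and 198 RPKM in PLT, 94.9 and 99.3 RPKM in PEM, and 115 and 158 RPKM in MUL mice, with both PEM mice below the other 4.

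Among the activators, Psme1 and Psme2 form a joint ring that is induced by interferon-gamma, and both were abundant. Psme1 had 310 and 383 RPKM in PLT, 452 and 486 RPKM in PEM, and 240 and 273 RPKM in MUL mice, in the order PEM, PLT, MUL without overlap. Psme2 had 343 and 567 RPKM in PLT, 333 and 407 RPKM in PEM, and 290 and 358 RPKM in MUL mice, and overlapped among the groups. The nuclear activator Psme3 had 18.5 and 14.03 RPKM in PLT, 10.96 and 25.7 RPKM in PEM, and 16.5 and 10.1 RPKM in MUL mice. Psme4, which is known for a role in sperm and in DNA repair, had 7.76 and 16.9 RPKM in PLT mice, 6.79 RPKM in PEM mouse 1, and 12.4 and 5.12 RPKM in MUL mice, and was listed at 0 in PEM mouse 2. The inhibitor Psmf1 had 27.1 and 38.9 RPKM in PLT, 45.02 and 26.96 RPKM in PEM, and 31.3 and 42.8 RPKM in MUL mice. Psme3, Psme4 and Psmf1 overlapped between every pair of groups, apart from Psme4 in PLT against PEM, where both PLT mice lay above both PEM mice.

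The assembly chaperones guide the rings of the core together in pairs (Psmg1 with Psmg2, Psmg3 with Psmg4). All 4 lay lower in both MUL mice than in both PEM mice, as did 17.5% of all tested genes. Psmg1 had 106 and 178 RPKM in PLT, 98.7 and 137 RPKM in PEM, and 97.3 and 81.3 RPKM in MUL mice. Psmg2 had 36.015 and 183 RPKM in PLT, 67.7 and 83.6 RPKM in PEM, and 26.4 and 47.3 RPKM in MUL mice. Both PEM mice lay above both MUL mice for each of these, and PLT mouse 1 lay among the MUL mice for Psmg2. Psmg3 had 12.6 and 27.5 RPKM in PLT, 42.1 and 19.5 RPKM in PEM, and 5.60 and 13.8 RPKM in MUL mice. Psmg4 had 36.3 and 112 RPKM in PLT, 74.1 and 77.8 RPKM in PEM, and 23.8 and 54.6 RPKM in MUL mice. For Psmg3 and Psmg4 too, both PEM mice lay above both MUL mice, and PLT overlapped with MUL. All 4 chaperones were higher in PLT mouse 2 than in PLT mouse 1, by a median of 1.34 on the log2 scale.

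The share of cells at 1 RPKM or more was averaged over the core and cap genes together. It was lowest in PLT mouse 1 and highest in PLT mouse 2, while both PEM mice lay above both MUL mice. The values were 43.1% and 69.2% in PLT, 67.0% and 55.4% in PEM, and 48.5% and 52.8% in MUL mice. PLT thus overlapped with both other groups. The difference in mean share of 5.51 percentage points between PLT and MUL mice was 18.6 points without PLT mouse 1 and -7.54 points without PLT mouse 2. Between PEM and MUL mice it was 10.5 points, with 4.77 points without PEM mouse 1 and 16.3 points without PEM mouse 2. Between PLT and PEM mice it was -5.03 points, with 8.03 points without PLT mouse 1, -18.1 points without PLT mouse 2, 0.74 points without PEM mouse 1 and -10.8 points without PEM mouse 2. Over all 11337 tested genes the median share was 7.53% and 13.1% in PLT, 18.3% and 16% in PEM, and 10.3% and 12.9% in MUL mice, and thus was also the lowest in PLT mouse 1 and higher in both PEM than in both MUL mice. Taken apart, the core genes averaged 54.8% and 84.7% of cells in PLT, 76.9% and 64.5% in PEM, and 59.5% and 62.9% in MUL mice. The cap genes averaged 33.8% and 56.8% in PLT, 59.1% and 48.2% in PEM, and 39.7% and 44.7% in MUL mice. The immunoproteasome genes averaged 59.9% and 74.2% of cells in PLT, 85.7% and 74.7% in PEM, and 61.5% and 74.5% in MUL mice. PEM mouse 1, not PLT mouse 2, was thus the highest for the cap and the immunoproteasome.

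**Figure D3:**
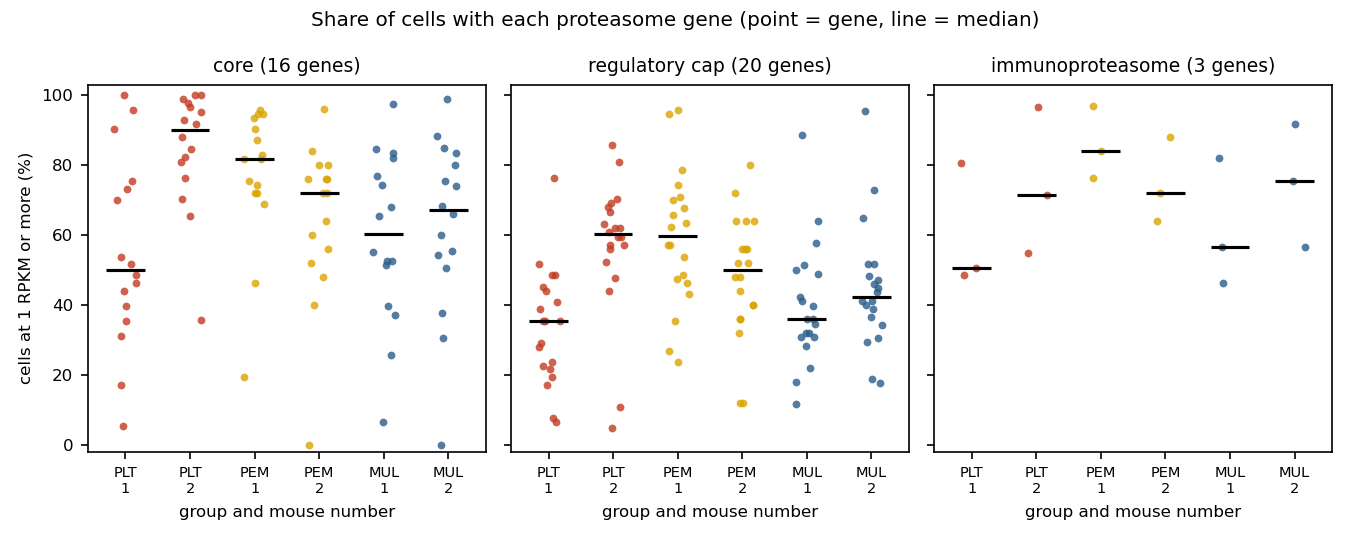
Share of cells at 1 RPKM or more for each core, cap and immunoproteasome gene in each mouse, with the median as a line. The core median is 50% in PLT mouse 1 and 89.9% in PLT mouse 2, on either side of the other 4 mice.

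A cell of PLT mouse 1 held a median of 19 of the 48 genes at 1 RPKM or more (range 10 to 35), and a cell of PLT mouse 2 held 31 (16 to 44). The medians were 31 (13 to 45) and 26 (4 to 40) in PEM mice, and 21 (5 to 43) and 23 (11 to 39) in MUL mice. Cells with more detected genes held more proteasome genes in every mouse, with Pearson correlations across the 25 to 93 cells of a mouse of 0.749 to 0.929, where both counts come from the same library. The correlation with mapped reads was negative in every mouse, from -0.808 to -0.298. The summed proteasome RPKM of a cell followed its detected genes little, with correlations of -0.097 to 0.304. Among cells with 1800 to 3000 detected genes, the mean number held was 21.4 and 29.3 in PLT, 25.6 and 24.8 in PEM, and 22.7 and 21.7 in MUL mice. PLT mouse 1 then lay just below the MUL mice and PLT mouse 2 above all others. Detection still differed within that window, where cells had a mean of 2154 and 2426 detected genes in PLT, 2568 and 2579 in PEM, and 2362 and 2382 in MUL mice. In PEM mouse 2 the first plate held a mean of 32 proteasome genes per cell and the second 17.5, and 1 cell of the second plate had a summed proteasome level of 25.965 RPKM, the lowest of the 458.

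**Figure D4:**
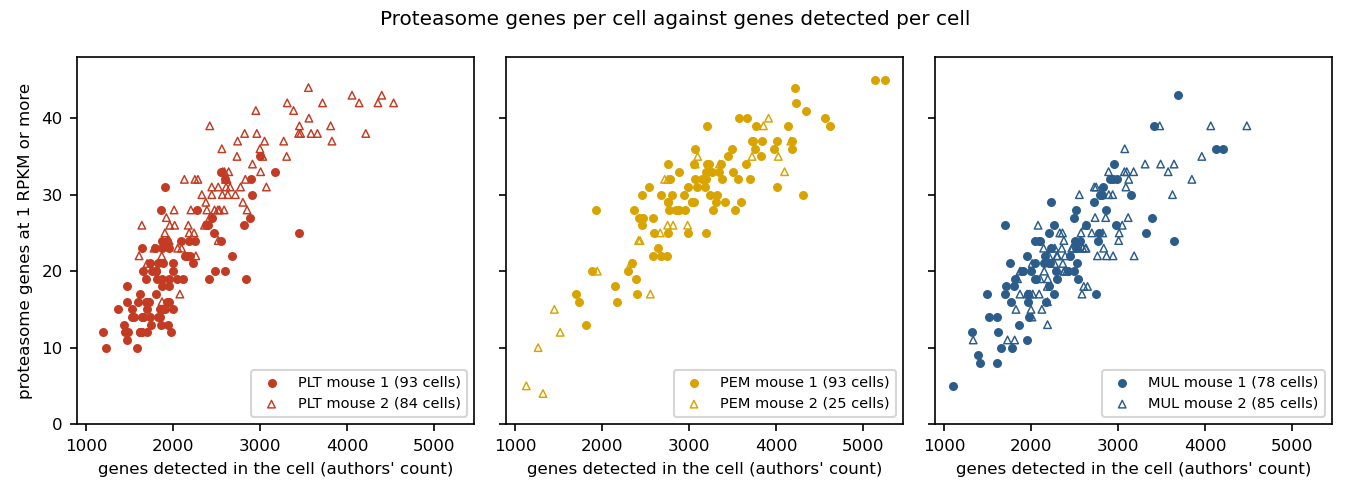
Number of the 48 proteasome genes at 1 RPKM or more in each cell against the authors' count of detected genes in that cell, by group and mouse. Cells of PLT mouse 1 gather at the low end of both axes and those of PLT mouse 2 reach higher on both. Over the cells with 1800 to 3000 detected genes the mean number held was 21.4 in PLT mouse 1 and 29.3 in PLT mouse 2, with means of 2154 and 2426 detected genes.

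In platelet-restricted against multilineage HSCs, most proteasome genes had positive fold changes but none passed the test. The median log2 fold change, on the log2(mean RPKM + 1) scale used throughout, was 0.42 over the 48 genes and -0.18 over all 11337 tested genes, and 39 of the 48 lay above 0 against 41.6% of all genes. By class the medians were 0.45 in the core, 0.19 in the cap, 0.12 in the immunoproteasome, 0.44 in the activators and 0.90 in the chaperones, and Psmf1 was at -0.17. Psmb2 had 1.03 ± 0.31 (SE, adjusted p = 0.483), Psma4 had 1.03 ± 0.40 (adjusted p = 0.560) and Psmd6 had 0.92 ± 0.35 (adjusted p = 0.548). Psma8 had the highest value, 3.28 ± 1.73 (adjusted p = 0.659), with a level listed at 0 in MUL mouse 2, and was chosen for mention after its values were seen. Psmd3 was the lowest, at -2.45 ± 0.72 (adjusted p = 0.480), and the next lowest by p were Psmb9, at -0.39 ± 0.41, and Psmb11, at -0.50 ± 0.78. Psmb8 had 0.12 ± 0.29 and Psmb10 0.47 ± 0.36.

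With limma and Benjamini-Hochberg adjustment over all tested genes, 0 of the 48 were called in PLT against MUL, where 0.00882% of all genes were. At an unadjusted p under 0.05 the count was 5, or 10.4% of the 48 against 8.41% of all genes. Of these, 4 were higher, against 2.44% of all genes, and 1 was lower, against 5.96%. Both PLT mice lay above both MUL mice for 19 of the 48 (39.6%), against 14.8% of all genes, and below them for 2 (4.17%), against 24.9%. The median of the 48 was 0.65 without PLT mouse 1 and 0.12 without PLT mouse 2, and the core median 0.84 and 0.25. Under quantile normalization the median of the 48 was 0.18, with that of all genes at 0.03.

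In PEM against MUL HSCs, too, most proteasome genes had positive fold changes and none passed the test. The median was 0.33 over the 48 genes and -0.04 over all tested genes, with 35 of the 48 above 0 against 47.6% of all genes. By class the medians were 0.35 in the core, 0.12 in the cap, 0.33 in the immunoproteasome, 0.27 in the activators and 1.06 in the chaperones, and Psmf1 was at -0.07. Psme1 had 0.87 ± 0.29 (SE, adjusted p = 0.868), Psmd7 had 0.81 ± 0.36 and Psmg3 had 1.59 ± 0.71. On the negative side Psma3 had -0.62 ± 0.34, Psme4 -1.70 ± 1.08 and Psmc6 -0.47 ± 0.41, with PEM mouse 2 listed at 0 for Psme4. Psmb8 had 0.33 ± 0.29, Psmb9 0.16 ± 0.41 and Psmb10 0.49 ± 0.36.

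By limma 0 of the 48 were called in PEM against MUL, where 0% of all genes were, and the lowest adjusted p among them was 0.868. At an unadjusted p under 0.05 the count was 1, or 2.08% of the 48 against 5.59% of all genes. This was Psme1, on the higher side with 2.8% of all genes, while 0 were on the lower side, against 2.79%. Both PEM mice lay above both MUL mice for 24 of the 48 (50%), against 17.5% of all genes, and below them for 5 (10.4%), against 18.3%. On plate P2 alone the median of the 48 was 0.10, with that of all genes at -0.19. Under quantile normalization it was 0.17, with that of all genes at 0.01, and without any 1 mouse it lay between 0.28 and 0.35. The activator median was 0.63 without PEM mouse 1 and -0.09 without PEM mouse 2.

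In PLT against PEM HSCs the fold changes of the proteasome genes were spread on both sides of 0, and none passed the test. The median was 0.06 over the 48 genes and -0.13 over all tested genes, with 27 of the 48 above 0 against 43.6% of all genes. The class medians were 0.21 in the core, 0.05 in the cap, -0.21 in the immunoproteasome, 0.10 in the activators and -0.06 in the chaperones, and Psmf1 was at -0.10. Psma3 had 0.85 ± 0.34 (SE, adjusted p = 0.585), Psmd10 had 0.90 ± 0.37 (adjusted p = 0.585) and Psmb2 had 0.70 ± 0.31. Psma8 was the highest, at 3.19 ± 1.73 (adjusted p = 0.647), with a level listed at 0 in PEM mouse 2. Psmd3 had -2.46 ± 0.72 (adjusted p = 0.545), Psmd2 -0.66 ± 0.38 and Psmc4 -0.55 ± 0.34. Psmb8 had -0.21 ± 0.29, Psmb9 -0.55 ± 0.41 and Psmb10 -0.02 ± 0.36, and both PLT mice lay below both PEM mice for Psmb8 and Psmb9.

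By limma 0 of the 48 were called in PLT against PEM, where 0% of all genes were. At an unadjusted p under 0.05 the count was 3, or 6.25% of the 48 against 8.37% of all genes. Of these, 2 were higher, against 2.49% of all genes, and 1 was lower, against 5.88%. Both PLT mice lay above both PEM mice for 11 of the 48 (22.9%), against 14.1% of all genes, and below them for 7 (14.6%), against 21.9%. The median was 0.31 without PLT mouse 1 and -0.08 without PLT mouse 2, and the core median 0.54 and 0.02. Averaging log values over cells gave a median of -0.45, with 11 of 48 above 0. The median of all tested genes was then -0.19, with 24.9% of them above 0, near the 22.9% of the 48. PLT against MUL and PLT against PEM share the PLT mice, and the contrasts with MUL share the MUL mice.

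**Figure D5:**
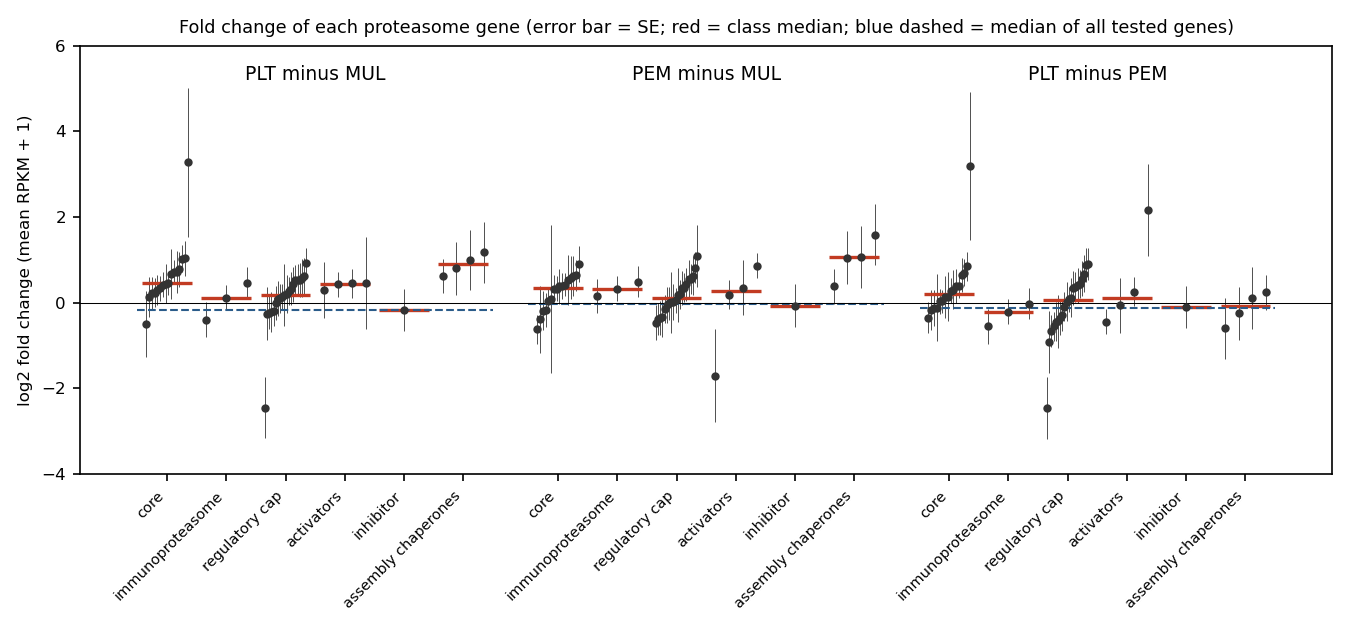
Log2 fold change of each proteasome gene with its standard error, by class and comparison, on the log2(mean RPKM + 1) scale. Class medians of the core sit above the median of all tested genes in each comparison, at 0.45 against -0.18 for PLT minus MUL, and Psmd3 stands apart at the low end, at -2.45 and -2.46, and Psma8 at the high end, at 3.28 and 3.19, in PLT minus MUL and PLT minus PEM.

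Other genes of the pathway, outside the naming scheme, were read from a list of 27, of which 25 were tested. It holds cap subunits and assembly factors (Adrm1, Shfm1, Pomp), deubiquitinases (Usp14, Uchl5), shuttle factors (such as Rad23b and the ubiquilins), Vcp with its partners, ubiquitin genes and the transcription factors Nfe2l1 and Nfe2l2. By limma 0 of the 25 were called in each comparison, and at an unadjusted p under 0.05 the counts were 3 in PLT against MUL, 2 in PEM against MUL and 2 in PLT against PEM. Over all tested genes the share at that p was 8.41%, 5.59% and 8.37% in that order. The list's median was -0.20 in PLT against MUL, 0.12 in PEM against MUL and -0.10 in PLT against PEM, beside medians over all tested genes of -0.18, -0.04 and -0.13. Nfe2l1, known as the activator of proteasome genes when proteasome activity falls short, had 0.356 and 0.050 RPKM in PLT mice, 6.65 and 6.30 RPKM in PEM mice, and 5.80 and 4.28 RPKM in MUL mice. Both PLT mice lay below the other 4, with an adjusted p of 0.495 against MUL and 0.545 against PEM, and the gene was at 1 RPKM or more in 2.15% and 1.19% of PLT cells, 16.1% and 8% of PEM cells, and 8.97% and 7.06% of MUL cells. Ubqln1, a shuttle for ubiquitinated proteins, had 14.3 and 9.26 RPKM in PLT, 23.1 and 23.1 RPKM in PEM, and 32.4 and 25.5 RPKM in MUL mice, in the order MUL, PEM, PLT without overlap. Rps27a, which encodes ubiquitin fused to a ribosomal protein, had 599 and 1024 RPKM in PLT, 1060 and 846 RPKM in PEM, and 558 and 505 RPKM in MUL mice. All restricted mice lay above both MUL mice for Rps27a. Pomp, which matures the core, had 636 and 661 RPKM in PLT, 445 and 624 RPKM in PEM, and 430 and 389 RPKM in MUL mice, with all restricted mice above both MUL mice. Pomp was chosen for mention after its values were seen.

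Of 10 antigen-processing genes that work with the immunoproteasome, by limma 0 were called in each comparison. Their median was -0.61 in PLT against MUL, 0.09 in PEM against MUL and -0.88 in PLT against PEM, beside medians over all tested genes of -0.18, -0.04 and -0.13. At an unadjusted p under 0.05 there were 4, 0 and 4 of the 10 in that order, against 8.41%, 5.59% and 8.37% of all tested genes. The 4 were Irf1, Tap2, H2-K1 and H2-D1 in both comparisons, and Irf1, H2-K1 and H2-D1 were chosen for mention after that count was seen. Irf1, a transcription factor of the interferon response, had 8.06 and 11.2 RPKM in PLT, 38.9 and 39.5 RPKM in PEM, and 41.03 and 52.4 RPKM in MUL mice, and its log2 fold change was -2.17 ± 0.49 in PLT against MUL (SE, adjusted p = 0.461). The MHC class I heavy chain gene H2-K1 had 1234 and 700.4 RPKM in PLT, 2139 and 1345 RPKM in PEM, and 1542 and 2081 RPKM in MUL mice. H2-D1, another class I heavy chain gene, had 325 and 240 RPKM in PLT, 620 and 578 RPKM in PEM, and 429 and 666 RPKM in MUL mice. Both PLT mice lay below the other 4 for Irf1, H2-K1 and H2-D1. The peptide transporter gene Tap1 had 53.0 and 12.2 RPKM in PLT, 60.5 and 44.9 RPKM in PEM, and 46.5 and 54.6 RPKM in MUL mice. Its partner Tap2 had 11.6 and 1.88 RPKM in PLT, 44.9 and 29.6 RPKM in PEM, and 36.8 and 40.6 RPKM in MUL mice. B2m, the light chain of MHC class I, had 5784 and 10245 RPKM in PLT, 7866 and 8237 RPKM in PEM, and 7667 and 7056 RPKM in MUL mice. Tap2 in both PLT mice thus lay below the other 4 mice, while Tap1 and B2m overlapped between PLT and MUL mice.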

How the data were processed

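RNA of single sorted cells was sequenced with the SMARTer Ultra Low kit, per the labels' protocols. The authors deposited RPKM values, which the submitters' processing notes tie to TopHat, featureCounts and mm10. The sources used here do not give their versions. A second deposited table holds, per the file headers, the count of mapped reads and of detected genes and the percent of mitochondrial reads per cell. The cells of a mouse were averaged, and log2(mean RPKM + 1) was tested with limma 3.58.1 in R 4.3.3 (1 mean per group over 6 mice, intensity-trended eBayes). The fit took the 11337 genes that averaged 1 RPKM or more in 2 of 6 mice, and all 48 proteasome genes passed. Adjustment was by Benjamini-Hochberg over all tested genes, with a threshold of 0.05. The fit was tested on simulated data with planted changes larger than the class medians reported here, so that test does not bear on changes of their size. p-values rest on the spread between mice, with 3 residual degrees of freedom per gene. Whole reads were not recovered, so no count model was fitted and cells were not thinned to a common depth; cells with 1800 to 3000 detected genes were used instead. No cell was left out and no doublet caller was run. Genes named were the catalytic, activator, inhibitor, chaperone and tissue-restricted members, Psmd2, Psmd4 and Psmd14, the 3 highest and 2 lowest of core and cap, and the 3 smallest p per comparison and direction. The members and all lists were chosen with earlier results of these data known. Replicate numbers follow accession order. Positions are from GENCODE M21. Some genes of the lists are not reported here.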

Additional observations from a re-analysis of the deposited data

How the results depend on the processing

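No paired analysis was possible because the replicate numbers only follow accession order and link no mice. Under the 21 alternatives of each comparison 0 of the 48 proteasome genes were called, and their lowest adjusted p ranged from 0.376 to 0.994 (PLT against MUL), 0.337 to 1 (PEM against MUL) and 0.325 to 0.867 (PLT against PEM). Their median log2 fold change ranged from 0.12 to 0.65, 0.10 to 0.78 and -0.45 to 0.31. The sign was kept under all alternatives by 26, 22 and 18 of the 48. The second plate of PEM mouse 2 and the rescaling of cells were added after seeing the data.

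Genes called numbered 1 in PLT against MUL, 0 with a pseudocount of 0.1, means of logs, 1800 to 3000 detected genes, either plate, a 2-group fit, no trend, or without any 1 mouse (0 to 0), 2 with a pseudocount of 10, a filter at 5 RPKM or no mature-marker cells, 4 with quantile normalization and 19 without a filter. In PEM against MUL they numbered 9 without a filter and 1 without mature-marker cells, and in PLT against PEM 4 without a filter. With means of logs the core median was 0.86 (PLT against MUL) and 1.08 (PEM against MUL), the cap median 0.75 (PEM against MUL) and -0.68 (PLT against PEM), and the immunoproteasome median -0.78 (PLT against PEM). The median of all tested genes was then -0.05 in PLT against MUL, 0.15 in PEM against MUL and -0.19 in PLT against PEM. In PEM against MUL, 70.5% of all tested genes lay above 0 with means of logs, against 47.6% in the main fit. On plate P1 the cap median was 0.37 in PEM against MUL. Without 1 mouse the core median was 0.25 to 0.84 in PLT against MUL, the activator median -0.086 to 0.63 in PEM against MUL and -0.19 to 0.46 in PLT against PEM, and the share of cells -7.54 to 18.6 points in PLT against MUL and -18.1 to 8.03 points in PLT against PEM.

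Some fold changes turned sign. In PLT against MUL, Psmb8 was -0.065 with means of logs, -0.20 with quantile normalization and -0.034 with 1800 to 3000 detected genes, and without 1 mouse Psmb8 lay between -0.063 and 0.31, Psmb9 between -0.83 and 0.043 and Psmb11 between -1.03 and 0.044. In PEM against MUL, Psmb9 was -0.0034 with quantile normalization, -0.028 with rescaled cells and -0.28 to 0.59 without 1 mouse, Psmb10 was -0.10 on plate P1 and Psmc6 0.13 with means of logs. The chaperone gene Psmg2 ranged from -2.15 to 2.84 over the 21 alternatives of that comparison and kept its sign in 19. In PLT against PEM, Psmb10 was 0.13 with median-ratio scaling, 0.42 on plate P1, 0.46 without the second plate of PEM mouse 2, 0.059 with rescaled cells and -0.37 to 0.33 without 1 mouse. The cause was not tested. With 2 mice per group, and 25 cells in PEM mouse 2, small differences were not detectable.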
